A study of Mus musculus with 28 samples.

Results

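The adult cortex of mice carrying Sepsecs Y334C together with the Gpx4 U/C allele was compared with that of control mice at postnatal day 75 (P75). The comparison was defined by the sample labels and held 8 of the 28 libraries of the series, 5 from mutants and 3 from controls. All were 3′-end mRNA libraries from cortex of the strain C57BL/6J. The labels call the groups Gpx4 MT and Gpx4 WT (spelled Gxp4 for most), and the design text describes the mutants as Sepsecs Y334C Gpx4 U/C and the others as controls. The controls' own Sepsecs genotype, the zygosity of either allele and the sex of the mice are not given, so the part of each allele in a difference is not known from these libraries. Replicates were mice per the design text. Libraries are named control 1 to 3 and mutant 1 to 5, and values listed in a row keep that order.

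Selenocysteine is made on its own tRNA, and Sepsecs carries out the last step, converting the phosphorylated seryl-tRNA to selenocysteinyl-tRNA. The ribosome then inserts selenocysteine at a UGA codon that would otherwise end translation. When selenocysteine is short, some selenoprotein mRNAs are degraded and others are spared. Gpx4 is a selenoprotein that reduces lipid peroxides and guards cells against ferroptosis. U/C is read here as an allele in which cysteine takes the place of its selenocysteine. In the brain, selenoproteins are needed by neurons in particular, and astrocytes and microglia are known to change their gene expression in many disorders.

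The reference sequence around the selenocysteine codon is shown for Gpx4, which the U/C allele concerns, and for Selenow and Gpx1, the selenoprotein mRNAs that were lower in the mutants. Each run is coding sequence from GENCODE M21 (GRCm38), with 30 bases on either side, and the capitals mark the codon for selenocysteine.
Gpx4 (chr10:80054737-80054739, plus strand, exon 3): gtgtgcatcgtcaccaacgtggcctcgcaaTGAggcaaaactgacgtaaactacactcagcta
Selenow (chr7:15920464-15920466, minus strand, exon 2): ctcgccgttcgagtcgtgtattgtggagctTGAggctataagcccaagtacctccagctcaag
Gpx1 (chr9:108339451-108339453, plus strand, exon 1): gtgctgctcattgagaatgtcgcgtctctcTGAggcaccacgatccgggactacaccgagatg
The codon is number 129 of 253 in the transcript Gpx4-201, number 13 of 88 in Selenow-201 and number 47 of 201 in Gpx1-201. Each of these coding sequences held 1 in-frame TGA before its end. The 3′-end tags counted here do not read these codons, so the counts do not show which Gpx4 allele a library carried.

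Library totals ran from 2997738 to 6593897 counts in the controls and from 3558689 to 6134241 in the mutants, which put the weight of a single count at 0.152 to 0.334 CPM. CPM are counts divided by the library total and multiplied by 1000000. Control 2 and mutant 2 stood apart. They held Ccdc36 at 968 and 781 CPM, against 3.81 to 10.0 CPM in the other 6. Alb, named after its values were seen, had no count in either and 35.9 to 135 CPM in the others. Xist was at 233 CPM in control 1 and 223 CPM in mutant 1 and at most 3.87 CPM elsewhere. Ddx3y, a gene of the Y chromosome, was at 0.476 CPM in control 1 and 0.424 CPM in mutant 1 and at 66.4 to 119 CPM elsewhere. By these markers control 1 and mutant 1 came from females and the others from males. Cortical markers were present in every library: Slc17a7 of excitatory neurons lay at 526 to 875 CPM in the controls and 592 to 839 CPM in the mutants, and Gad1 of inhibitory neurons at 164 to 237 CPM in the controls and 170.3 to 246 CPM in the mutants. Neurod6, which marks cortical projection neurons, was at 27.7 CPM in control 2 and 25.6 CPM in mutant 2, against at least 97.8 CPM in the other 6 libraries.

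The cortex libraries also differed in markers of neighbouring regions. A list of 22 striatal neuron genes summed to 4728, 6739 and 3568 CPM in the controls and to 974, 4450, 1028, 1750 and 2064 CPM in the mutants. Adora2a, an adenosine receptor of striatal neurons named after its values were seen, ran 104, 513 and 44.6 CPM in the controls and 0.635, 187, 1.3, 10.1 and 17.5 CPM in the mutants. Ttr, the transport protein that the choroid plexus secretes, ran 30.9, 6.67 and 71.7 CPM in the controls and 135, 70.5, 146, 1769 and 993 CPM in the mutants. Thus mutants 1, 3, 4 and 5 held less striatal mRNA than any control, and mutants 4 and 5 held the most Ttr. In such bulk samples, fewer cells of a type and less RNA per cell cannot be told apart.

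**Figure D1:**
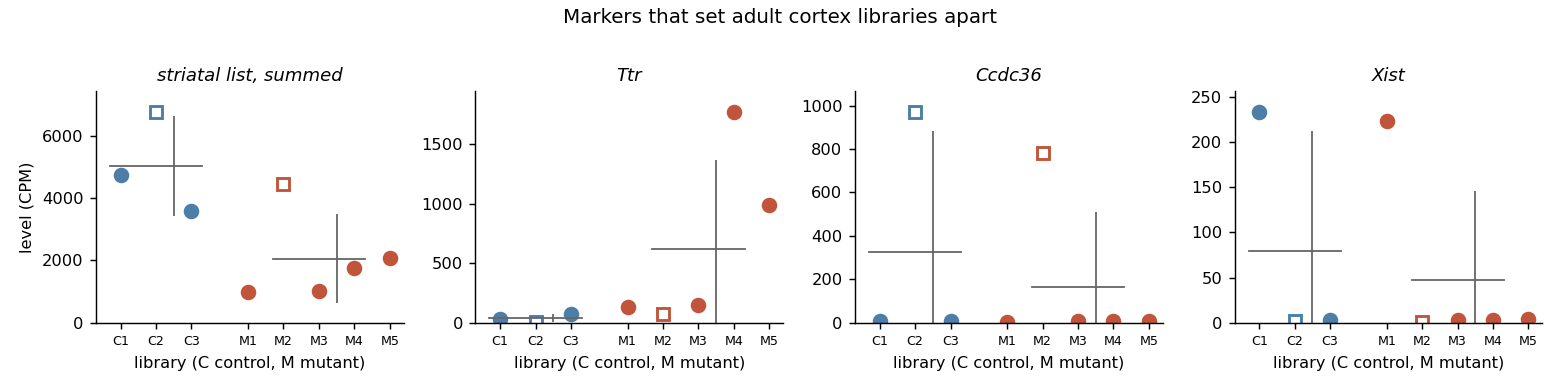
Levels (CPM) in each of the 8 adult cortex libraries of the summed striatal list, Ttr, Ccdc36 and Xist, with controls in blue, mutants in red and the libraries numbered 2 as open squares; horizontal lines are group means and vertical lines ± 1 SD. The striatal sum is 974 to 2064 CPM in mutants 1, 3, 4 and 5, below all controls, and Ttr is 1769 and 992.5 CPM in mutants 4 and 5.

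The number of genes that passed the test depended on how the libraries numbered 2 were handled. With all 8 libraries and no further term, 0 of 13291 genes passed an adjusted p of 0.05 by edgeR's quasi-likelihood test, while 726 had an unadjusted p under 0.05. DESeq2 called 53 genes (0.399%) and limma-voom with quality weights 0. With a term for the libraries numbered 2, hereafter the number-2 term, 47 genes were higher and 41 lower in the mutants, 0.354% and 0.308% of those tested, or 0.662% together. With the replicate number as a block, 22 were higher and 26 lower, 0.166% and 0.196%, and 38 of the 88 remained called. Mutants 4 and 5 have no same-numbered control, so they add nothing to the fold changes of the block fit. These rest on 3 same-numbered pairs, so the block is no check on all mutants. When both libraries numbered 2 were left out, only 3 of the 88 passed. All 88 kept their direction, but they had been called in a fit that included the other 6 libraries. The shared direction is therefore no independent check. Etnppl and Mt2 were higher (0.0146% of 13653 genes) and Scn4b was lower (0.00732%), or 0.022% together.

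The 88 calls rested on the controls. Without control 1 only Etnppl, Mt2 and Plin4 of them passed (4 genes in all), and without control 3 it was 16 (20 in all). Leaving out mutant 1 raised the count to 260, and leaving out mutant 4 gave 58. Control 1 and mutant 1 are the libraries with the markers of females. With the Xist level beside the number-2 term, 68 genes were called, 58 of them among the 88. With the number-2 term as well as the summed striatal level in the model, 95 genes were higher (0.715%) and 1 was lower (0.00752%); 24 of the 47 higher calls and none of the 41 lower calls remained. Of these 41 genes, 8 are part of the striatal sum. Unless another library is named, calls given below from the fit with the number-2 term were lost without control 1 and without control 3, and the log2 fold changes and standard errors (SE) are from that fit.

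Selenoprotein mRNAs changed in opposite directions. Of 24 members, 21 were tested, 10 higher and 11 lower with a median log2 fold change of -0.12, against 0.00 over all genes tested. All mutants lay above all controls for 1 of them and below for 3, where 2.95% and 1.34% of all genes tested did so. Selenow and Gpx1 fell and Selenop rose with the number-2 term. The 3 not tested, Dio1, Gpx2 and Selenov, had 3 to 17 counts over all 8 libraries.

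Selenow (ENSMUSG00000041571, chr7:15917208-15922402, minus strand) encodes a small redox protein that is abundant in brain. Its mRNA was at 318, 178 and 384 CPM in the controls and 66.9, 99.2, 148, 149.7 and 154 CPM in the mutants, so that every mutant lay below every control. The log2 fold change was -1.31 ± 0.22, adjusted p = 0.0236. The block gave an adjusted p of 0.0338. Gpx1 (ENSMUSG00000063856, chr9:108338903-108340343, plus strand) encodes the peroxidase of cytosol and mitochondria whose mRNA is known to fall early when selenium is scarce. It ran 162, 246 and 163 CPM in the controls and 82.2, 153, 79.6, 101 and 91.9 CPM in the mutants. All mutants were again below all controls, although mutant 2 came close to controls 1 and 3. Its log2 fold change was -0.84 ± 0.11, adjusted p = 0.00941, with 0.0342 under the block, and this call was lost without control 1 but not without control 3. With the summed striatal level in the model, the log2 fold change of Selenow was -0.67 ± 0.38, adjusted p = 0.779. That of Gpx1 was -0.57 ± 0.19, adjusted p = 0.376. Both SEs were larger than without it. Most mutants had a lower striatal sum than any control, so this fit cannot separate genotype from striatal level. In the controls Selenow ran in the opposite order to the sum (4728, 6739 and 3568 CPM), and Gpx1 was highest where the sum was. Mutant 2 had the highest sum of the mutants (4450 CPM) and the highest Gpx1, but not the highest Selenow. In the other mutants Selenow and the sum had the same order.

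Among 5 mRNAs known as sensitive to selenium supply (Gpx1, Gpx3, Msrb1, Selenoh and Selenow), 4 were lower, with a median of -0.57. Selenoh, a nuclear redox protein, ran 21.2, 16.3 and 22.7 CPM in the controls and 15, 11.5, 16.1, 14.4 and 13.9 CPM in the mutants, with all mutants below all controls and a log2 fold change of -0.57 ± 0.15 that missed the threshold (adjusted p = 0.112). The sum over the 5 mRNAs was 549.8 to 611 CPM in controls 1 and 3 and 205 to 306 CPM in mutants 1, 3, 4 and 5. Within the number-2 pair it was 465 CPM in the control and 298 CPM in the mutant.

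Selenop (ENSMUSG00000064373, chr15:3268547-3280508, plus strand), the secreted carrier that brings selenium to the brain and between its cells, was higher. Its values were 142, 142 and 199 CPM in the controls and 284, 274, 235, 272 and 272 CPM in the mutants, with no overlap. The log2 fold change was 0.70 ± 0.13, adjusted p = 0.0327, and the call was lost without control 1, mutant 4 or mutant 5. The log2 fold change was of like size but not past the threshold under the block (0.72 ± 0.17, adjusted p = 0.139) and with the striatal term (0.75 ± 0.24, adjusted p = 0.329). Sephs2, the selenoprotein that makes the selenium donor for Sepsecs, had a log2 fold change of 0.50 ± 0.14 (adjusted p = 0.13). Dio3, which inactivates thyroid hormone, ran 0.952, 15.3 and 0.607 CPM in the controls and 4.66, 24.4, 6.52, 6.19 and 11.4 CPM in the mutants. The libraries numbered 2 were the highest of their groups, and within that pair and among the other 6 libraries alike the mutants lay above the controls. The log2 fold change was 1.91 ± 0.47, adjusted p = 0.0964, and 3.17 ± 0.53, adjusted p = 0.0772 in the 6 libraries, neither past the threshold by edgeR. DESeq2 gave an adjusted p of 0.000863 with the term and 0.000494 in the 6 libraries.

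The mutated genes themselves had low counts. Whether these reflect low mRNA levels or reads that were not assigned to the genes was not tested. Sepsecs (ENSMUSG00000029173, chr5:52640087-52669708, minus strand) ran 8.8, 6.67 and 8.64 CPM in the controls and 14.6, 4.21, 12.7, 9.01 and 8.19 CPM in the mutants, with overlapping groups and a log2 fold change of 0.14 ± 0.27, adjusted p = 0.893. Gpx4 (ENSMUSG00000075706, chr10:80047166-80056439, plus strand) ran 9.04, 4.00 and 12.3 CPM in the controls and 22.4, 5.06, 13.5, 13.7 and 15.2 CPM in the mutants. Its mutants 1, 3, 4 and 5 lay above controls 1 and 3, but the difference did not pass (log2 fold change 0.52 ± 0.24, adjusted p = 0.389). Of 13 genes for selenocysteine synthesis and insertion, none passed, and their fold changes on the log2 scale lay between -0.11 and 0.50.

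**Figure D2:**
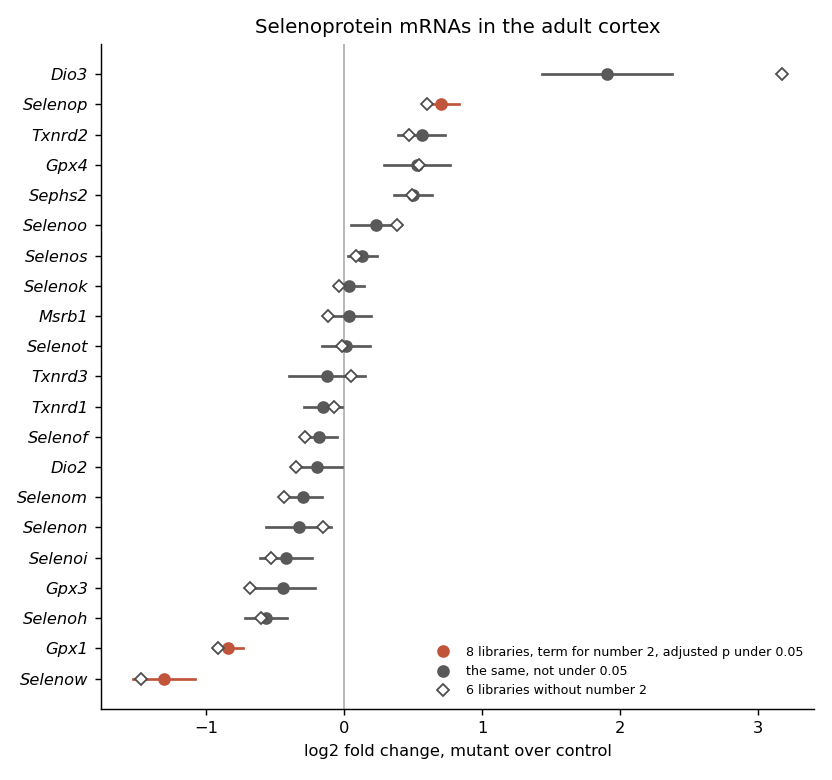
Log2 fold change (mutant over control) of the 21 tested selenoprotein mRNAs in the fit with the number-2 term (filled circles with lines of ± 1 SE, red where the adjusted p is under 0.05) and in the 6 libraries without number 2 (open diamonds). Selenow at -1.31 and Gpx1 at -0.84 are lowest, Selenop at 0.70 is called higher, and Dio3 has the highest value but is not called.

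Astrocyte genes of the reactive state were higher. Of 35 listed genes 27 were tested, of which 24 were higher, with a median log2 fold change of 1.05 with the number-2 term. There, 5 were called higher (Gfap, Serpina3n, C4b, Cd14 and Fkbp5) and none lower, and all mutants lay above all controls for 8 of the 27. Among all genes tested, 0.354% were called higher with that term, and 2.95% had all mutants above all controls. The same shares apply to each list below. Gfap (ENSMUSG00000020932, chr11:102887336-102900912, minus strand), the intermediate filament of astrocytes, ran 23.8, 21.3 and 37.8 CPM in the controls and 79.4, 216, 225, 389 and 318 CPM in the mutants. Every mutant was above every control, mutant 1 least, and the log2 fold change was 3.07 ± 0.43, adjusted p = 0.0107, with 0.00366 under the block and 0.0028 with the striatal term. Without the libraries numbered 2, the log2 fold change was 2.98 ± 0.54 and the adjusted p = 0.0774.

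Serpina3n, a secreted protease inhibitor, ran 4.04, 1.33 and 4.09 CPM in the controls and 11, 28.7, 14.3, 44.5 and 46.4 CPM in the mutants, a log2 fold change of 3.05 ± 0.55, adjusted p = 0.0287. Under the block its adjusted p was 0.0527. Cd14, a co-receptor for bacterial lipopolysaccharide, ran 1.19, 1.00 and 1.67 CPM in the controls and 3.81, 12.9, 8.8, 15.4 and 9.1 CPM in the mutants (log2 fold change 2.84 ± 0.48, adjusted p = 0.0217). In both genes mutant 1 was the lowest mutant and no mutant overlapped a control. Vim, another filament gene, was at 21.3 to 33.5 CPM in the controls and 36.4 to 94.8 CPM in the mutants and was not called (adjusted p = 0.0886).

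General astrocyte genes differed less. Of 24 tested, 22 were higher with the number-2 term, with a median of 0.28, and 3 were called. Etnppl (ENSMUSG00000019232, chr3:130617448-130637521, plus strand), an astrocyte enzyme that breaks down phosphoethanolamine, was among the most regular differences. It ran 9.99, 11.7 and 12.6 CPM in the controls and 48.1, 56.5, 57.4, 44.7 and 32.5 CPM in the mutants, with a log2 fold change of 2.05 ± 0.20, adjusted p = 0.00162. It also passed in the 6 libraries (0.0366), under the block (0.00142), with the striatal term (0.0455) and with each library left out from the fit with the number-2 term (at most 0.0372).

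The other 2 called genes of that list were Gjb6, a gap junction connexin (log2 fold change 0.88 ± 0.13, adjusted p = 0.0144), and Agt, angiotensinogen (1.54 ± 0.24, adjusted p = 0.02; named after its values were seen). Agt was at 91.9 CPM in mutant 2 against at most 18.8 CPM in the other mutants. With the striatal term neither passed, at 0.69 ± 0.23, adjusted p = 0.377 for Gjb6 and 1.83 ± 0.41, adjusted p = 0.0757 for Agt, each with a larger SE. Aqp4, the astrocyte water channel, overlapped fully between the groups, at 40.5 to 74.4 CPM in the controls and 42.2 to 75.6 CPM in the mutants. Slc1a2, the main glutamate transporter, was at 2220.2 to 3004 CPM in the controls and 2507 to 3522 CPM in the mutants.

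**Figure D3:**
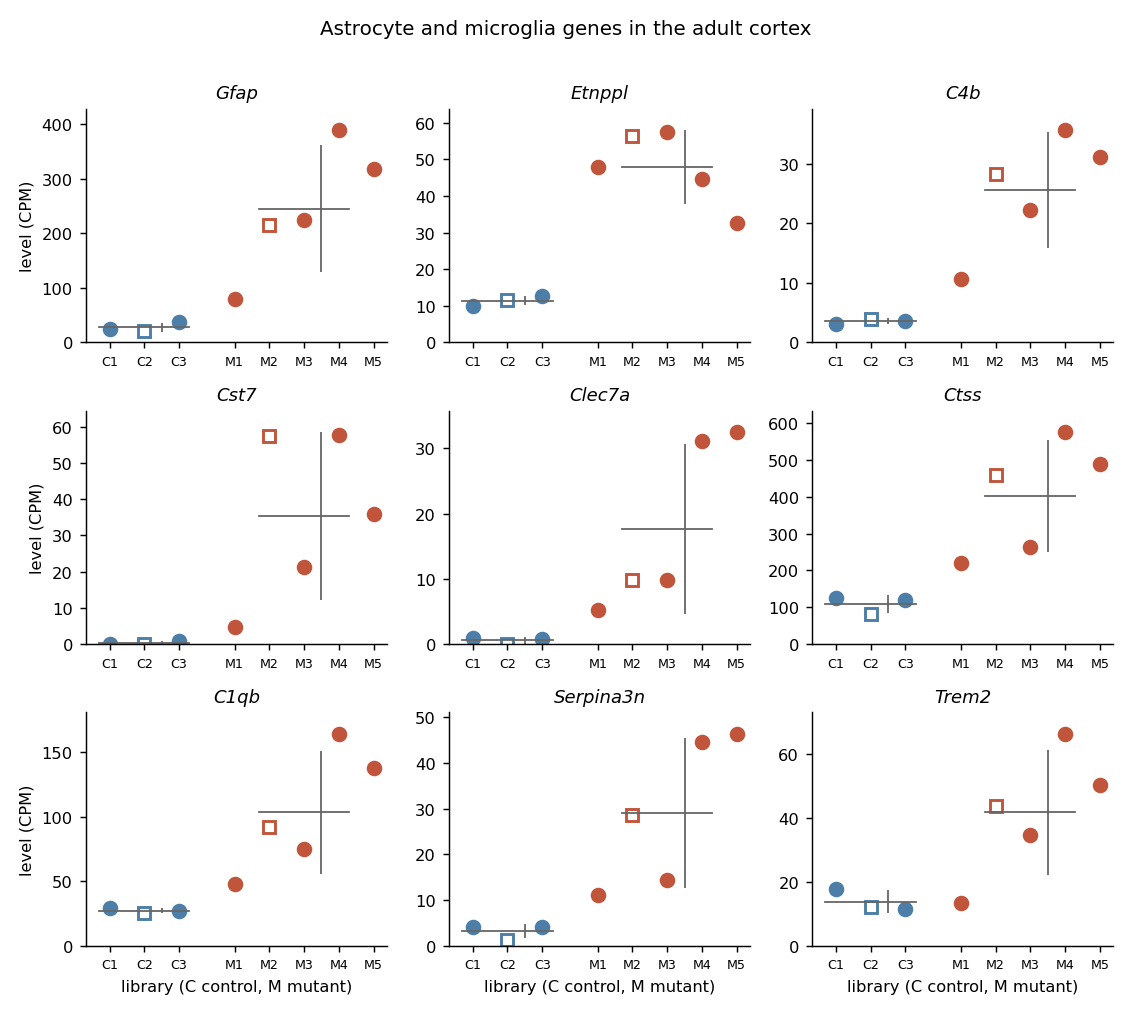
Levels (CPM) of 9 astrocyte and microglia genes in each of the 8 adult cortex libraries, controls in blue and mutants in red, with the libraries numbered 2 as open squares; horizontal lines are group means and vertical lines ± 1 SD. For 8 of the 9 genes every mutant lies above every control, while for Trem2 mutant 1 lies within the control range.

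Genes of the disease-associated microglial state were also higher in the mutants. All 27 tested members of a list of 28 had a positive log2 fold change with the number-2 term, with a median of 1.05, and 4 were called. For 12 of them all mutants lay above all controls, as for 2.95% of all genes tested, of which 0.354% were called higher. Cst7 (ENSMUSG00000068129, chr2:150570415-150578944, plus strand), a cathepsin inhibitor, ran 0, 0 and 0.91 CPM in the controls and 4.66, 57.6, 21.2, 57.8 and 35.9 CPM in the mutants. The controls held 6 counts in all and the mutants 823. With so few control counts the log2 fold change of 6.27 ± 0.97 (adjusted p = 0.019) is uncertain in size. The block gave an adjusted p of 0.00311.

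Clec7a, the beta-glucan receptor dectin-1, ran 0.952, 0 and 0.758 CPM in the controls and 5.29, 9.84, 9.78, 31.1 and 32.5 CPM in the mutants, from 9 counts in the controls and 429 in the mutants (log2 fold change 4.68 ± 0.80, adjusted p = 0.0236). Igf1, a growth factor, ran 15.7, 13 and 17.6 CPM in the controls and 28.2, 29.5, 34.4, 31.3 and 38 CPM in the mutants, with no overlap (log2 fold change 1.01 ± 0.15, adjusted p = 0.0163). Igf1 did not pass under the block (0.98 ± 0.19, adjusted p = 0.0645). Spp1, osteopontin, was the other called member at 1.52 ± 0.30, adjusted p = 0.0384, and its call was lost when any 1 of 5 libraries was left out: control 1, control 3, mutant 3, mutant 4 or mutant 5. It did not pass under the block either (1.28 ± 0.31, adjusted p = 0.168). Trem2, a lipid receptor of microglia, ran 17.8, 12 and 11.5 CPM in the controls and 13.3, 43.8, 34.7, 66.4 and 50.3 CPM in the mutants, with mutant 1 inside the control range, and did not pass (log2 fold change 1.58 ± 0.40, adjusted p = 0.104; named after its values were seen). Its signalling partner Tyrobp gave 1.48 ± 0.33, adjusted p = 0.0654 and was likewise named after its values were seen.

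Genes that resting microglia express differed less. Of 16 homeostatic genes 13 were higher with the number-2 term, with a median of 0.44, and 1 was called. Tmem119 was at 11.4 to 17.7 CPM in the controls and 18.3 to 23 CPM in the mutants, P2ry12 at 11 to 32.8 CPM in the controls and 16.3 to 32.5 CPM in the mutants and Cx3cr1 at 96 to 155 CPM in the controls and 84.5 to 241 CPM in the mutants. The groups overlapped for P2ry12 and Cx3cr1. For Tmem119 the lowest mutant was just above the highest control.

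Complement genes were also higher. Of 18 listed 13 were tested, 12 were higher with the number-2 term, with a median of 1.32, and 4 were called: C4b, C3ar1, C1qb and C1qc. The share called higher among all genes was 0.354%. C4b (ENSMUSG00000073418, chr17:34728380-34743882, minus strand), whose reads can be shared with its near-identical copy C4a, ran 3.09, 4.00 and 3.64 CPM in the controls and 10.6, 28.4, 22.3, 35.7 and 31.2 CPM in the mutants (log2 fold change 2.83 ± 0.38, adjusted p = 0.0107; block 0.00736). C3ar1, the receptor for a fragment of C3, ran 1.9, 0.667 and 2.27 CPM in the controls and 5.72, 18, 12.4, 22.3 and 14.8 CPM in the mutants (log2 fold change 3.01 ± 0.48, adjusted p = 0.02). C1qb and C1qc, chains of the first complement component, gave log2 fold changes of 1.88 ± 0.34, adjusted p = 0.0293 and 1.78 ± 0.31, adjusted p = 0.0236. C1qc did not pass under the block (0.0807).

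Ctss, a cysteine protease of microglial lysosomes, ran 125, 80.4 and 119.8 CPM in the controls and 221, 459, 263, 576 and 489 CPM in the mutants (log2 fold change 1.86 ± 0.30, adjusted p = 0.0203). Of 24 lysosome genes 23 were tested, 22 were higher, with a median of 0.49, and 2 were called, against 0.354% of all genes. The block gave Ctss an adjusted p of 0.0562. A2m, a protease trap named after its values were seen, ran 0.714, 1.00 and 0.607 CPM in the controls and 2.33, 11.2, 3.59, 12.2 and 10.5 CPM in the mutants (log2 fold change 3.39 ± 0.65, adjusted p = 0.0378), a call lost also without mutant 4 or mutant 5 and under the block (0.0626).

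The 32 tested genes of antigen presentation by MHC class I and the interferon response, of 37 listed, were all higher, with a median log2 fold change of 0.96 with the number-2 term, yet 1 was called (0.354% among all genes). That was Lgals3bp, a secreted glycoprotein, which ran 13.3, 9.01 and 10.6 CPM in the controls and 22.2, 40.7, 31.5, 70.6 and 58.2 CPM in the mutants (log2 fold change 1.97 ± 0.35, adjusted p = 0.0258). Ifit3, an interferon-induced gene whose reads can be shared with the copy Ifit3b, ran 7.38, 4.34 and 6.82 CPM in the controls and 12.5, 7.31, 20.5, 42.8 and 35 CPM in the mutants and did not pass (adjusted p = 0.0855), with mutant 2 just below control 1. B2m, the light chain of MHC class I, named after its values were seen, ran 182, 49.4 and 186 CPM in the controls and 192, 187, 277, 525 and 483 CPM in the mutants (adjusted p = 0.0948). In B2m mutants 1 and 2 were barely above controls 1 and 3, and mutants 4 and 5 were highest in both genes.

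Among the mutants, mutant 1 had the lowest sum for the lists of reactive astrocytes, disease-associated microglia, complement, lysosome and MHC class I with interferon. Mutant 4 had the highest sum for the first, second and last of these, and mutant 2 for complement and lysosome. The reactive astrocyte list summed to 257 to 312 CPM in the controls, 474 CPM in mutant 1 and 1078 CPM in mutant 4. Mutants 4 and 5, high for many of these genes, also had the highest Ttr, and all 7 tested choroid plexus genes of 14 were higher with the number-2 term (median 2.20, none called). Their part in the glial values was not tested. Without mutants 4 and 5, the fit with the number-2 term still called 70 genes, 52 of them among the 88. Striatal mRNA was lower in 4 of the 5 mutants than in any control. With the striatal term, the calls of Etnppl, Gfap, Serpina3n, C4b, Cd14, Cst7, Clec7a, C3ar1, C1qb, C1qc, Ctss, A2m and Lgals3bp remained, and those of Gjb6, Agt, Igf1, Spp1 and Fkbp5 were lost. As said above, that fit cannot separate genotype from striatal level, so the kept calls are no check on it. The term also shifted list medians, to 2.15 for disease-associated microglia (14 called) and 2.29 for MHC class I with interferon (12 called). For glucocorticoid-responsive genes the median was 0.20. Of all genes, 0.715% were called higher in that fit. Igf1 was at 1.21 ± 0.27, adjusted p = 0.079 there, and Spp1 at 2.20 ± 0.50, adjusted p = 0.076.

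Metallothioneins and several genes known to respond to glucocorticoids were higher. Mt1 and Mt2 encode small proteins that bind zinc and copper, and both are induced by metals and by glucocorticoids. Their promoters are shown because the pair moved together. Each run is RefSeq sequence (GRCm38.p6) of the 250 bases before the gene's start in the RefSeq annotation, which differs from the GENCODE M21 start in the gene spans given here for both genes, and the capitals mark matches to the core of the metal response element, searched as TGCACNC or TGCGCNC on both strands.
Mt1 (chr8:94178839-94179088, plus strand): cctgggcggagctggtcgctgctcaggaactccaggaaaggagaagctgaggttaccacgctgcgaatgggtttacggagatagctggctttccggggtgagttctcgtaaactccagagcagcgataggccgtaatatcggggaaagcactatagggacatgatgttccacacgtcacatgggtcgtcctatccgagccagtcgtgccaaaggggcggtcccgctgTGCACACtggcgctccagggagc
Mt2 (chr8:94172368-94172617, plus strand): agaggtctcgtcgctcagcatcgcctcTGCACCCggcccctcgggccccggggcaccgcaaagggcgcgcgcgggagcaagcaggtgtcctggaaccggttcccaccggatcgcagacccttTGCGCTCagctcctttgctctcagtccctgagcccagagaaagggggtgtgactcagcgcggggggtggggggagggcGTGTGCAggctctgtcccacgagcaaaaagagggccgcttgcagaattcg
Within these windows Mt1 had 1 match and Mt2 had 3. The count depends on where the start is placed. Sequence past either end of a window was not searched, so the counts do not compare the 2 promoters. Of 32851 such promoters, 21.4% had at least 1 match and 1.26% at least 3. A match describes the letters and does not show binding.

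Mt2 (ENSMUSG00000031762, chr8:94172664-94173568, plus strand) ran 304, 913 and 307 CPM in the controls and 687, 2858, 773, 732 and 596 CPM in the mutants. Both number-2 libraries were far above the other libraries of their own group, and the mutant was higher within either set. The log2 fold change was 1.29 ± 0.13, adjusted p = 0.00162. It was 1.15 ± 0.14, adjusted p = 0.0366 in the 6 libraries, where the 4 mutants lay above both controls. The call held with each library left out from the fit with the number-2 term (at most 0.0302), under the block (0.00366) and with the striatal term (0.0266). Mt1 (ENSMUSG00000031765, chr8:94179082-94180327, plus strand) ran 484, 401 and 506 CPM in the controls and 841, 1127, 878, 1008 and 817 CPM in the mutants (log2 fold change 0.99 ± 0.14, adjusted p = 0.0107; lost only without control 1).

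Of 16 glucocorticoid-responsive genes 15 were tested, 14 were higher with the number-2 term, with a median of 0.45, and 5 were called: Mt2, Fkbp5, Plin4, Sult1a1 and Cdkn1a. Of all genes, 0.354% were called higher. Fkbp5, a chaperone that restrains the glucocorticoid receptor, ran 27.6, 71.7 and 25 CPM in the controls and 69, 183, 74.3, 63.2 and 48 CPM in the mutants (log2 fold change 1.29 ± 0.15, adjusted p = 0.00612; lost only without control 1). Plin4, a lipid droplet coat protein, ran 0, 7.01 and 0.758 CPM in the controls and 8.47, 52.5, 7.34, 10.1 and 5.23 CPM in the mutants, from 26 counts in the controls and 349 in the mutants (log2 fold change 3.35 ± 0.40, adjusted p = 0.00612). Its call held with each library left out. Sult1a1, a sulfotransferase, gave 1.41 ± 0.25, adjusted p = 0.0258, lost without control 1 or mutant 4 and under the block (0.0662), and Cdkn1a, the cell cycle inhibitor p21, gave 1.20 ± 0.24, adjusted p = 0.0407, lost also without mutant 3.

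In this set the libraries numbered 2 were the highest of their group for Mt2, Fkbp5, Plin4 and Sult1a1, so that in Mt2 and Fkbp5 control 2 exceeded most mutants. Within the pair, mutant 2 was 3.13-fold above control 2 for Mt2 and 2.56-fold for Fkbp5. Klf15, a transcription factor that glucocorticoids also induce but that was in no list and was named after its values were seen, ran 13.1, 12 and 15.3 CPM in the controls and 34.7, 21.4, 27.6, 31.3 and 25.9 CPM in the mutants (log2 fold change 0.99 ± 0.16, adjusted p = 0.0204). Ptgds, a prostaglandin synthase of meninges and glia, ran 652, 679.9 and 619 CPM in the controls and 1051, 986, 1614, 1388 and 1343 CPM in the mutants (0.92 ± 0.15, adjusted p = 0.0204). Klf15 and Ptgds did not pass under the block (adjusted p = 0.0807 and 0.0685). Fkbp5, Sult1a1, Cdkn1a, Klf15 and Ptgds did not pass with the striatal term (adjusted p = 0.168, 0.367, 0.566, 0.56 and 0.382). Their log2 fold changes there were still positive, the lowest of the 5 being 0.70 ± 0.29 for Klf15.

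**Figure D4:**
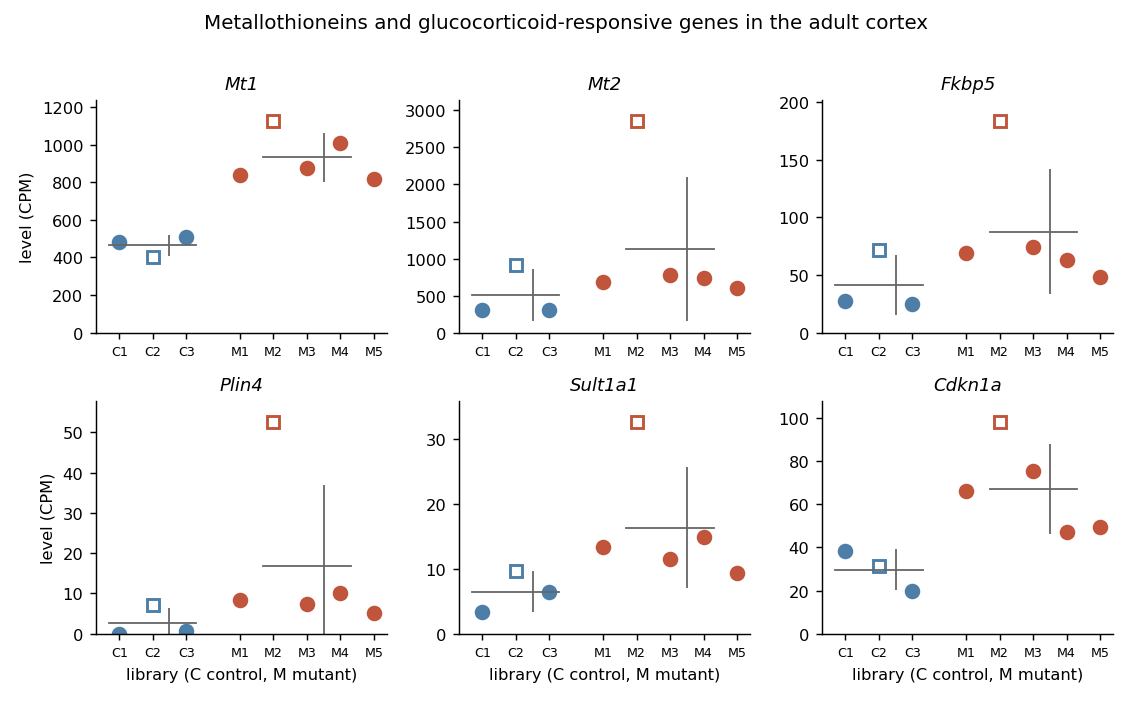
Levels (CPM) of 2 metallothioneins and 4 glucocorticoid-responsive genes in each of the 8 adult cortex libraries, controls in blue and mutants in red, with the libraries numbered 2 as open squares; horizontal lines are group means and vertical lines ± 1 SD. Mutant 2 is the highest library in all 6 panels, and among the circles every mutant lies above both controls.

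Cholesterol synthesis genes were lower as a group. All 22 tested members of a list of 23 were below 0, with a median log2 fold change of -0.46 with the number-2 term, and 1 was called. Cyp51 and Msmo1, enzymes that demethylate sterols, gave log2 fold changes of -0.59 ± 0.16, adjusted p = 0.121 and -0.63 ± 0.15, adjusted p = 0.0908, neither past the threshold. The list summed to 1335 to 1619 CPM in the controls and 941 to 1332 CPM in the mutants, so that all mutants lay just below all controls.

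Of the 22 striatal neuron genes 21 were tested, and all 21 were lower, with a median log2 fold change of -1.54. Scn4b (ENSMUSG00000046480, chr9:45138395-45154152, plus strand), a sodium channel subunit, ran 314, 359.6 and 235 CPM in the controls and 37.5, 187, 25.9, 66.4 and 73 CPM in the mutants (log2 fold change -2.07 ± 0.31, adjusted p = 0.0163; -2.49 ± 0.31, adjusted p = 0.0366 in the 6 libraries). Pde10a, a cyclic nucleotide phosphodiesterase of medium spiny neurons, ran 119.9, 119 and 106 CPM in the controls and 15.9, 70.5, 19.1, 36.8 and 49.6 CPM in the mutants (-1.62 ± 0.30, adjusted p = 0.0327), and its call was lost also without mutant 3 or mutant 4. Rasd2, a small GTPase, gave -1.28 ± 0.22, adjusted p = 0.0236, Pcp4, a calmodulin-binding protein, -1.18 ± 0.19, adjusted p = 0.0204, and Pde1b, another phosphodiesterase, -1.19 ± 0.17, adjusted p = 0.013.

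Clspn, a DNA replication checkpoint gene and the lower gene with the smallest p in the 8-library fit without the term, ran 8.33, 6.34 and 3.49 CPM in the controls and 1.48, 1.97, 0.489, 0.751 and 0.455 CPM in the mutants (log2 fold change -2.54 ± 0.46, adjusted p = 0.0293), and its call was lost when any 1 library of the fit other than mutant 1 and the number-2 pair was left out and under the block (-2.28 ± 0.47, adjusted p = 0.0926). Kcnip2, a potassium channel subunit, ran 214, 132 and 206 CPM in the controls and 109, 79.8, 83.5, 136 and 112 CPM in the mutants (-0.90 ± 0.14, adjusted p = 0.0163). With the striatal level in the model, the log2 fold change was -1.86 ± 1.01, adjusted p = 0.771 for Clspn and -0.53 ± 0.24, adjusted p = 0.637 for Kcnip2. Scn4b, Pde10a, Rasd2, Pcp4 and Pde1b are themselves part of that sum, so the striatal term says nothing about them. The part of striatal mRNA in the lower genes was not tested in any other way.

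Single neuronal and oligodendrocyte genes of the cortex were split in direction or differed little. The counts by direction and the medians given here are from the 8-library fit without the term. Excitatory neuron genes summed to 12330 and 13040 CPM in controls 1 and 3. They summed to 9469 to 12070 CPM in mutants 1, 3, 4 and 5, and within the number-2 pair to 8648 CPM in the control and 7676 CPM in the mutant. GABA neuron genes summed to 3004 to 3055 CPM and 2747 to 2988 CPM in the same libraries, and to 2389 and 2114 CPM in the pair. Both sums were thus lower in the mutants of each set, while the myelin sums overlapped. Of 25 tested excitatory neuron genes 12 were higher and 13 lower (median -0.04), and 1 was called with the number-2 term: Foxp2, a transcription factor of deep-layer and of striatal neurons (-1.10 ± 0.16, adjusted p = 0.0144), lost only without control 1. Of 23 genes of GABA neurons 14 were higher and 9 lower (median 0.02), with none called. Pvalb, the calcium buffer of fast-spiking interneurons, was at 51.4 to 145 CPM in the controls and 39.1 to 156 CPM in the mutants. Of 20 myelin genes 17 were lower, with a median of -0.18 (-0.25 with the number-2 term) and none called in either fit, and Mbp, a main myelin protein, was at 924 to 2401 CPM in the controls and 769 to 2238 CPM in the mutants. The ranges of the groups overlapped for Pvalb and for Mbp.

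The cortex was then set beside the heart of adults with the same genotype labels, to show where its mutant difference was of another size. The interaction of tissue and genotype called 0 of 14814 genes without further terms and 27 (0.182%) with number-2 terms for each tissue, 16 (0.108%) with a more positive difference in cortex and 11 (0.0743%) with a more negative one. Heart control 1 also held Ccdc36 at 245.1 CPM. Without it 64 genes were called. The genes below were chosen after their values were seen, and whether cortex and heart came from the same mice is not given.

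NRF2 is the transcription factor that turns on genes of glutathione and thioredoxin metabolism under oxidative stress. Of 27 NRF2 target genes tested, 19 had a lower mutant difference in cortex than in heart, with a median of -0.81 against 0.03 for all genes, and 4 were called in that direction: Gclm, Gstm1, Gsta4 and Txnrd1. Gclm (ENSMUSG00000028124, chr3:122245557-122270732, plus strand), a subunit of the rate-limiting enzyme of glutathione synthesis, ran 48.5, 50.4 and 47.8 CPM in the controls and 61, 43, 57.1, 60.6 and 54.1 CPM in the mutants of cortex, with overlap. In heart it ran 9.44, 21.3 and 15.2 CPM in the control hearts and 60.0, 144, 109.5, 95.2 and 67.1 CPM in the mutant hearts, all mutants above all controls. The log2 difference, cortex minus heart, was -2.47 ± 0.32, adjusted p = 0.011.

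Gstm1, a glutathione transferase, was at 102 to 178 CPM in the controls and 143 to 234 CPM in the mutants in cortex and 108 to 169.8 CPM in the control hearts and 590.2 to 1489.9 CPM in the mutant hearts (cortex minus heart -2.35 ± 0.43, adjusted p = 0.0366). Gsta4, which clears the lipid peroxidation product hydroxynonenal, was at 14.5 to 26.4 CPM in the controls and 18.3 to 31.4 CPM in the mutants in cortex and 25.5 to 52.8 CPM in the control hearts and 157 to 229 CPM in the mutant hearts (-1.87 ± 0.36, adjusted p = 0.0452). Txnrd1, the cytosolic thioredoxin reductase and itself a selenoprotein, was at 32.4 to 41.4 CPM in the controls and 23.3 to 47 CPM in the mutants in cortex and 13.3 to 27.2 CPM in the control hearts and 47.6 to 71.4 CPM in the mutant hearts (-1.45 ± 0.27, adjusted p = 0.0406). Pir, in none of the lists, was at 1.67 to 7.89 CPM in the controls and 1.69 to 7.2 CPM in the mutants in cortex and 0.821 to 3.93 CPM in the control hearts and 13.9 to 19.1 CPM in the mutant hearts (-2.94 ± 0.53, adjusted p = 0.0366). These 5 remained called without heart control 1. Nqo1 lay at 3.18 to 5.00 CPM in the controls and 3.93 to 6.78 CPM in the mutants in cortex and 13.1 to 32.1 CPM in the control hearts and 82.7 to 221 CPM in the mutant hearts and did not pass (adjusted p = 0.114).

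In the cortex alone, 26 NRF2 targets were tested, 19 were higher with the number-2 term, and those called were Mt1 and Mt2, which other pathways also induce. Nfe2l2, the gene of NRF2 itself, ran 11.2, 8.01 and 10.8 CPM in the controls and 22.9, 15.7, 16.6, 28 and 22.5 CPM in the mutants (log2 fold change 1.00 ± 0.20, adjusted p = 0.0384; named after its values were seen). That call was lost without control 1, control 3, mutant 4 or mutant 5, under the block (0.85 ± 0.22, adjusted p = 0.199) and with the striatal term (1.31 ± 0.35, adjusted p = 0.16).

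Selenoh was lower in both tissues but less so in cortex. It was at 16 to 18.2 CPM in the control hearts and 2.6 to 4.9 CPM in the mutant hearts, and the log2 difference, cortex minus heart, was 1.92 ± 0.30, adjusted p = 0.0274. For Selenow the difference was 0.61 ± 0.40, adjusted p = 0.588, not past the threshold, with 39.3 to 62.5 CPM in the control hearts and 9.14 to 28.4 CPM in the mutant hearts. Gpx1 was at 118 to 244 CPM in the control hearts and 54.9 to 205 CPM in the mutant hearts. Clec7a, Aif1 (a microglia and macrophage marker), Plin4 and Sparc (a matrix glycoprotein) had a more positive mutant difference in cortex. Sparc was at 234 to 423 CPM in the controls and 363 to 988 CPM in the mutants of cortex and 932 to 1526 CPM in the control hearts and 393 to 639.8 CPM in the mutant hearts (2.59 ± 0.42, adjusted p = 0.0288), so that all mutant hearts lay below all control hearts. Clec7a gave 4.79 ± 0.91, adjusted p = 0.0452, which became 0.0542 without heart control 1.

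**Figure D5:**
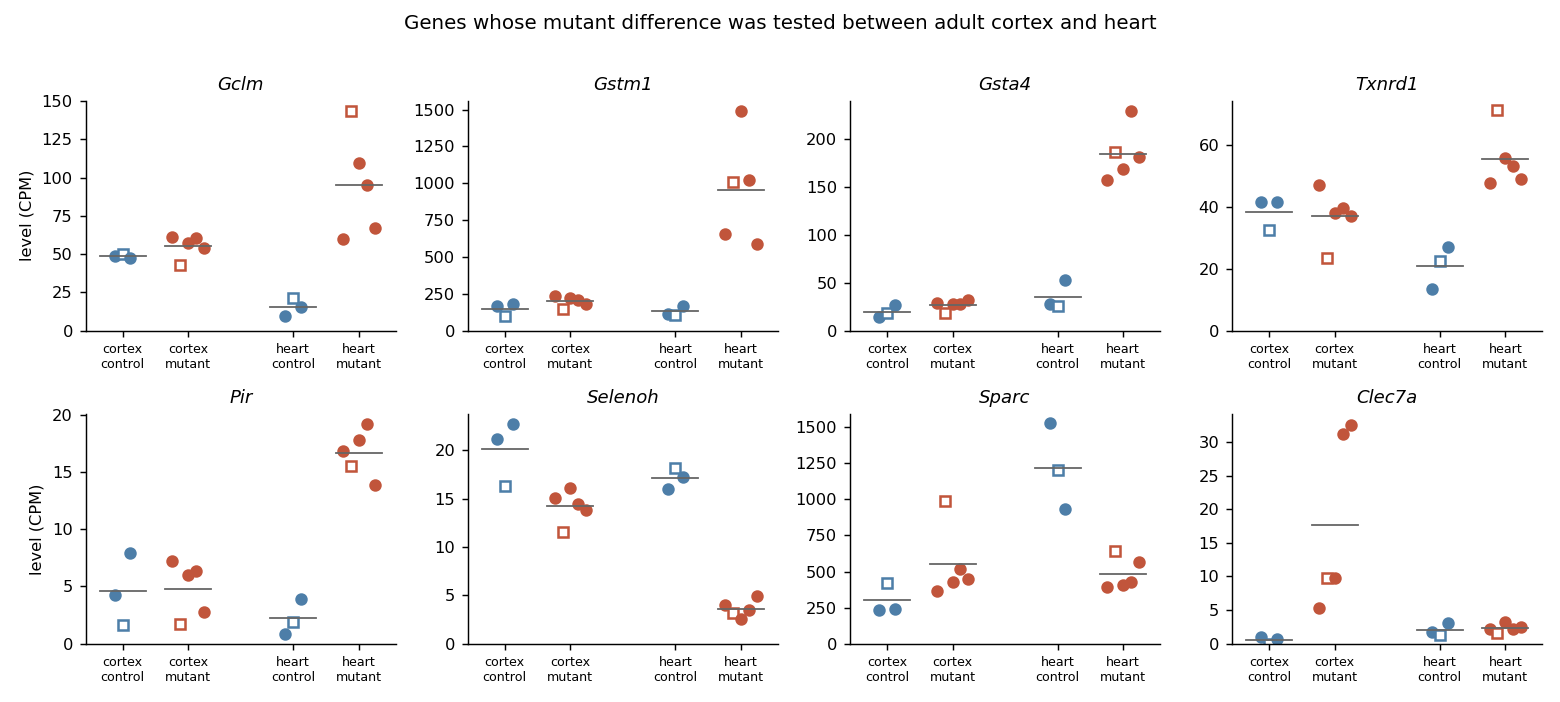
Levels (CPM) of 8 genes in adult cortex and heart libraries, controls in blue and mutants in red, with the libraries numbered 2 as open squares and horizontal lines at group means. Gclm, Gstm1, Gsta4, Txnrd1 and Pir are higher in all mutant hearts than in all control hearts and overlap between the cortex groups, and Selenoh is lower in all mutants than in all controls of either tissue.

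Newborn cortex (P1) carried Sepsecs Y334C without the Gpx4 U/C allele, in 3 control and 3 mutant libraries. Age, allele and, for most libraries, sex as read from Xist therefore differ together. Xist was at 285 to 515 CPM in the newborn mutants and at 475, 1.18 and 0.472 CPM in the newborn controls. Among the adult mutants of cortex only mutant 1 was high. The difference between the ages in the mutant effect called 0 of 14806 genes with edgeR (521 at an unadjusted p under 0.05), 0 with the number-2 term (942) and 1 with DESeq2. Gfap was at 6.26 to 11.6 CPM in the newborn controls and 6.71 to 18.1 CPM in the newborn mutants. Selenow was at 129 to 162 CPM in the newborn controls and 57.3 to 87.0 CPM in the newborn mutants. For Gfap the age difference on the log2 scale was 2.54 ± 0.64, adjusted p = 0.47, and for Selenow -0.31 ± 0.33, adjusted p = 0.917.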

How the data were processed

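The values used were whole-number read counts per gene, deposited by the authors in 1 file per library (55416 gene IDs, of which 52083 had a symbol in GENCODE M21). RNA was extracted with TRIzol and made into QuantSeq 3′ libraries, per the labels' protocols. STAR and GRCm38 are named in the submitters' processing notes, without versions. The labels used here name no counting tool and no annotation. Tags near the 3′ end give 1 region per transcript, so levels (CPM) are counts scaled to a library total of 1000000, with no length correction.

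The main test was edgeR 4.0.16 (R 4.3.3) with TMM scaling, its default count filter and the quasi-likelihood F test of 5 mutants against 3 controls, with Benjamini-Hochberg adjustment over all genes tested and a threshold of 0.05. Standard errors are the log2 fold change over the square root of F. Ccdc36 sets control 2 and mutant 2 apart, so results are given with a term for that pair and without the pair. DESeq2 1.42.0 and limma-voom 3.58.1 were alternatives. The interactions with heart and with newborn cortex used the same test.

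Replicate numbers come from the sample titles. Residuals of same-numbered controls and mutants correlated at 0.321, 0.717 and 0.354, each over 0.1, so the number was also fitted as a block. Differently numbered pairs that left out number 2 correlated as strongly, at 0.218 to 0.436, so number 2 alone stood out. Without the pair numbered 2 the same-number correlations were 0.0934 and 0.0553. The Xist covariate was log2 of CPM plus 1, and the striatal covariate was log2 of the summed CPM of the list.

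Named genes were Sepsecs, Gpx4 and selenoproteins, the 10 smallest p in each direction that kept their direction in 6 libraries, up to 6 smallest p per list, and Ccdc36, Xist and Ddx3y. Genes outside this rule are said to be chosen after their values were seen, apart from markers used to check tissue and cell type. Some genes are not reported here. Members and lists were chosen with earlier results of these data known.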

Additional observations from a re-analysis of the deposited data

Results flagged for a closer look

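Of 85 genes checked, 15 had 1 of the 5 mutant cortex libraries far from the other mutants, with a gap of over 0.71 of the group's range. For independent genes with normal spread, chosen without regard to their values, chance gives about 1 such gene in 20. The 85 were not such a set: they include the library checks Ccdc36, Xist and Ddx3y and genes named after their values were seen. The 15 of 85 can therefore not be set against that rate. In 12 of the 15 it was mutant 2: Gpx1 at 153.1, Agt at 91.89, Mt2 at 2858, Fkbp5 at 183.5, Plin4 at 52.55, Sult1a1 at 32.6, Ppp1r1b at 926.5, Adora2a at 186.9, Gad2 at 186.3, Cldn5 at 53.67, Sparc at 988.3 and Ccdc36 at 781.5 CPM. Mutant 1 stood apart in Xist at 223.2 CPM and in Ddx3y at 0.4236 CPM, and mutant 3 in Selenop at 235.4 CPM. Ppp1r1b, Gad2 and Cldn5 were chosen after their values were seen or as cell type markers.

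The mutant difference in cortex minus that in heart, on the log2 scale with terms for the libraries numbered 2, passed an adjusted p of 0.05 by edgeR for 10 genes that the text names. It was positive for Selenoh (1.92), Clec7a (4.79), Plin4 (2.66), Sparc (2.59) and Aif1 (3.50). It was negative for Txnrd1 (-1.45), Gclm (-2.47), Gstm1 (-2.35), Gsta4 (-1.87) and Pir (-2.94). Without those terms none of the 10 passed.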

How the results depend on the processing

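With all 8 cortex libraries and no further term, 0 genes were called. The count was 11 with no count filter, 53 with DESeq2, 4 with the 4 cortex groups in 1 fit, 88 with the term for the libraries numbered 2 and 3 without them, and 0 to 2 with 1 library left out. With the replicate number as a block, which pairs same-numbered libraries and leaves 2 residual degrees of freedom, it was 48. Without the libraries numbered 2 (3 calls), the count was 540 with no filter, 0 with a mean count of at least 10, 142 with DESeq2, 85 with the replicate block, 11 with Xist level as a covariate, 73 at an adjusted p of 0.10, and 0 to 112 with 1 library left out. With the term (88 calls), it was 262 with DESeq2 and 4 to 260 with 1 library left out. The alternatives that add to this term, and the terms in the tissue and age comparisons, were chosen after seeing the data.

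For cortex against heart (0 calls) the count was 14 with no filter, 58 with DESeq2, 27 with the terms, 64 with the terms and without heart control 1, and 0 to 1 with 1 library left out. For P75 against P1 (0 calls) it was 10 with no filter and 1 with DESeq2. The cause of these changes was not tested.

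Of 1812 values under alternatives, 3 changed sign, none of them called. The values covered 60 gene differences, either in cortex or cortex minus heart, and some genes are in both. Those that changed sign were Sepsecs at -0.91 with the striatal term and -0.0034 with the number-2 term without mutant 1, and Gpx4 at -0.0124 with the striatal term. Depth limits low genes: Cst7 and Clec7a rest on 6 and 9 counts in all controls together.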
